A study of Homo sapiens with 27 samples.

Results

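The response of 3 human acute myeloid leukaemia lines to CARM1 shRNA hairpin 2 was compared with that to a scramble shRNA. The comparison takes 18 of the 27 libraries, chosen by their labels: 9 with hairpin 2 and 9 with scramble, with 3 of each in MOLM-13, MV411 and SKNO1. The other 9 libraries carry CARM1 hairpin 1 and are used where the hairpins are set side by side or compared directly. All groups received a constitutive lentiviral shRNA, and total RNA was taken 3 days later. SKNO1 was grown with 10 ng/mL GM-CSF in all its groups. The labels do not say whether replicates were separate cultures or infections, so p-values measure only the spread between these samples, which may be technical.

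CARM1, also called PRMT4, places asymmetric dimethyl marks on arginines of histone H3 and of many other proteins, among them chromatin remodelling and splicing factors. It acts as a transcriptional coactivator together with p160 proteins and the acetyltransferases p300 and CBP, for nuclear receptors, p53, NF-kB and other factors. In myeloid cells it methylates RUNX1. MOLM-13 and MV411 are monocytic lines with a rearranged KMT2A gene and activated FLT3, and SKNO1 carries the RUNX1-RUNX1T1 fusion.

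The 18 libraries held 25063577 to 50973177 expected counts each. Defining markers went with the labels. HOXA9, HOXA10 and MEIS1 had at least 17.95 CPM (CPM are counts divided by the library total and multiplied by 1000000) in every scramble library of MOLM-13 and MV411, and were at 0 in those of SKNO1. RUNX1T1 had 91.7 to 94.8 CPM in SKNO1 scramble libraries and at most 0.0196 in those of the other lines. The leukocyte gene PTPRC and the myeloid genes CD33 and SPI1 were present in all 3 lines. Mitochondrial rRNA took a larger share of counts with hairpin 2, by 2.75 percentage points on average over the lines (two-sided exact permutation within lines, p = 0.001, adjusted p = 0.002 over 4 tests). Its mean share was 24.9% with scramble and 28.2% with hairpin 2 in MOLM-13, 26.25% and 31.1% in MV411, and 0.0913% and 0.141% in SKNO1. The libraries were apart in MOLM-13 and MV411 and overlapped in SKNO1, which adds little to the average. The structured RNAs RN7SK, RPPH1, RMRP and those of the signal recognition particle took 4.18 points more (exact permutation p = 0.0035, adjusted p = 0.00467). Their mean share was 12.4% with scramble and 17.5% with hairpin 2 in MOLM-13, 11.99% and 12.8% in MV411, and 18.6% and 25.2% in SKNO1. The libraries overlapped in MV411 and in MOLM-13 (11.25% to 13.51% against 13.29% to 21.86%), and were apart in SKNO1. With scaling factors computed without these RNAs, 5977 genes passed the main test, beside 5903 with them. MOLM-13 hairpin 2 replicate 2 stood apart from its replicates (chi-square per gene 219 and 226, against at most 100.2 for the other pairs of one group), and without it 5883 genes passed.

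CARM1 RNA stood at about the same level in the 3 lines with scramble and was low in each with hairpin 2. In MOLM-13 it had 19.1, 26.3 and 24.6 CPM with scramble and 3.93, 4.69 and 2.21 with hairpin 2. Its MV411 levels were 22.3, 24.97 and 23.7 CPM with scramble and 2.39, 3.79 and 2.28 with hairpin 2. In SKNO1 it had 21.7, 21.8 and 27.2 CPM with scramble and 3.38, 2.97 and 3.51 with hairpin 2. The groups did not overlap in any line. The RNA left was 15.5% ± 5.44 of the scramble mean in MOLM-13, 11.9% ± 3.56 in MV411 and 13.95% ± 1.20 in SKNO1 (SD, n = 3 each). With hairpin 1 it was 16.7% ± 6.12, 21.9% ± 2.44 and 37.4% ± 7.94. The mean difference over the lines was -2.90 on the log2 scale (exact permutation within lines, p = 0.00025, the smallest that 8000 label assignments allow). In edgeR's quasi-likelihood fit across all genes, CARM1 (GRCh38 chromosome 19, 10871513 to 10923070, plus strand) fell by 2.76 ± 0.12 (log2 fold change ± SE, adjusted p = 2.63e-11). Between the hairpins, it was lower with hairpin 2, with a difference of -0.93 ± 0.17 (adjusted p = 0.00102, edgeR).

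**Figure D1:**
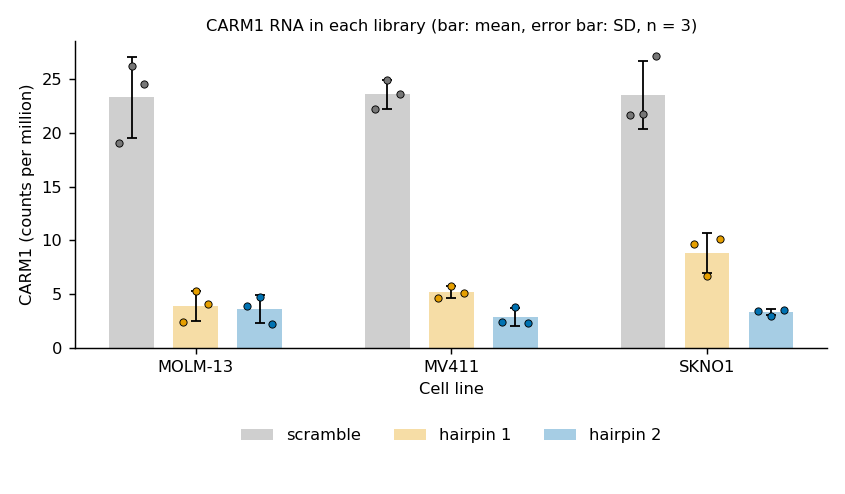
CARM1 level in CPM (vertical axis) in each library, by cell line (horizontal axis) and shRNA (colour); bars are means, error bars SD, n = 3. The 9 hairpin 2 libraries lie between 2.21 and 4.69 CPM, and the 9 scramble libraries between 19.1 and 27.2.

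Hairpin 2 changed a large share of the transcriptome, and most genes called had 1 sign in the 3 lines. Of 20817 genes tested with line as an additive term, 5903 passed an adjusted p of 0.05 (28.4%), 2788 higher (13.4%) and 3115 lower (15.0%). Among them 2465 higher genes (11.8% of all tested) and 2901 lower genes (13.9%) had the same sign of change in each line. Together these are 90.9% of the genes called, while 47.98% of all genes tested had 1 sign. The calls and the signs come from the same libraries, and opposite changes make a call across the lines less likely. The difference between these shares is therefore no test of agreement between the lines. The median change of the lower genes was -0.68 in MOLM-13, -0.63 in MV411 and -0.54 in SKNO1 on the log2 scale, and that of the higher genes 0.78, 0.70 and 0.63. More than 2-fold changes with 1 sign were found for 726 higher and 649 lower genes. Some of these had almost no counts in 1 line. Among genes with a mean of at least 10 counts in either group of every line, a condition added after seeing the data, 346 higher and 534 lower genes changed more than 2-fold with 1 sign.

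Each line on its own gave fewer calls. In the fit that gives each line its own change, 2857 genes passed in MOLM-13 (13.7%), 2628 in MV411 (12.6%) and 1511 in SKNO1 (7.26%). In the same direction in each of the 3 lines, 342 genes passed as lower (1.64%) and 88 as higher (0.423%). These counts were 88 and 31 without SKNO1 hairpin 2 replicate 2, when the SKNO1 count was 420. In every line all hairpin 2 libraries lay below all scramble libraries for 1007 genes (4.84%) and above them for 372 (1.79%). Across the 20817 genes, which are not independent, the changes correlated with a Pearson r of 0.48 between MOLM-13 and MV411, 0.284 between MOLM-13 and SKNO1 and 0.304 between MV411 and SKNO1.

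Among genes with a mean log2 CPM of at least 2, the largest common falls were in DNA replication and chromosome handling. KIAA0101, which encodes the PCNA-associated factor PAF15, had 36.5, 47.03 and 52.99 CPM with scramble in MOLM-13 and 10.5, 4.35 and 2.28 with hairpin 2. In MV411 it had 73.4, 36.4 and 55.3 CPM with scramble and 2.52, 1.17 and 2.82 with hairpin 2, and in SKNO1 35.4, 58.2 and 36.6 against 5.07, 4.05 and 4.47. The groups were apart in all 3 lines. It fell by 3.46 ± 0.32 on the log2 scale (adjusted p = 6.7e-07, edgeR; GRCh38 chromosome 15, 64364311 to 64387687, minus strand). Next to CARM1 followed CDC45, a part of the replicative helicase (-2.62 ± 0.30), and KIF2C, a microtubule depolymerase of the kinetochore (-2.49 ± 0.29). The others of the leading 12 were the histone gene HIST1H2BJ (-2.48 ± 0.26), the replication initiator MCM10 (-2.47 ± 0.32), the recombination gene XRCC2, the chromatin assembly subunit CHAF1B, TCF19, the CDK adaptor CKS1B, the spindle gene HMMR and DTL (-2.25 ± 0.26), which guides a ubiquitin ligase to replication factors.

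Above the same level, the largest common rises included many genes of innate immune and phagocytic cells. C3, the central complement component, had 5.49, 9.74 and 3.47 CPM with scramble in MOLM-13 and 37.2, 143 and 205 with hairpin 2. The MV411 libraries had 4.16, 5.71 and 7.09 CPM with scramble and 76.9, 114 and 48.2 with hairpin 2, and those of SKNO1 0.536, 0.194 and 0.413 against 2.53, 2.83 and 2.52. Every hairpin 2 library was above every scramble library of its line, and SKNO1 with hairpin 2 stayed below the scramble libraries of both other lines. It rose by 3.94 ± 0.33 (adjusted p = 3.74e-07, edgeR; GRCh38 chromosome 19, 6677704 to 6730562, minus strand).

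SEMA6B, which encodes a transmembrane semaphorin, had 2.26, 1.25 and 2.97 CPM with scramble in SKNO1 and 17.4, 26.04 and 25.3 with hairpin 2. Its changes were 2.79 ± 0.45 in MOLM-13, 2.81 ± 0.44 in MV411 and 3.57 ± 0.47 in SKNO1, with no overlap of groups in any line, and it rose by 3.04 ± 0.27 across them (adjusted p = 4.58e-07, edgeR). ALOX5, the 5-lipoxygenase of leukotriene synthesis, rose by 2.33 ± 0.30, and the lysosomal nuclease gene DNASE2 by 2.10 ± 0.35. CXCL8, a chemokine that draws neutrophils, had 0.710, 1.13 and 0.740 CPM with scramble in MV411 and 7.78, 4.99 and 6.60 with hairpin 2. It rose by 2.19 ± 0.25 across the lines. NCF1, a subunit of the phagocyte NADPH oxidase, rose by 2.12 ± 0.22, but its count is uncertain because near-identical copies could share its reads. CYBB, the catalytic subunit of that oxidase, rose by 2.70 ± 0.33, through MOLM-13 and MV411. CYBB, CD36 and MPEG1 had a mean below 10 counts in both SKNO1 groups, so their sign there carries little information. The remaining leading rises were the macrophage receptor pseudogene ADGRE4P (2.23 ± 0.20), the integrin subunit ITGAM (1.99 ± 0.36) and TMEM176B (1.99 ± 0.31). ITGAM groups were apart in MV411 and overlapped in the other lines. In MOLM-13 ITGAM had 30.85, 21.86 and 10.24 CPM with scramble and 28.02, 68.35 and 113.1 with hairpin 2. In SKNO1 it had 0.903, 0.555 and 0.716 against 0.785, 1.15 and 1.07 CPM.

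**Figure D2:**
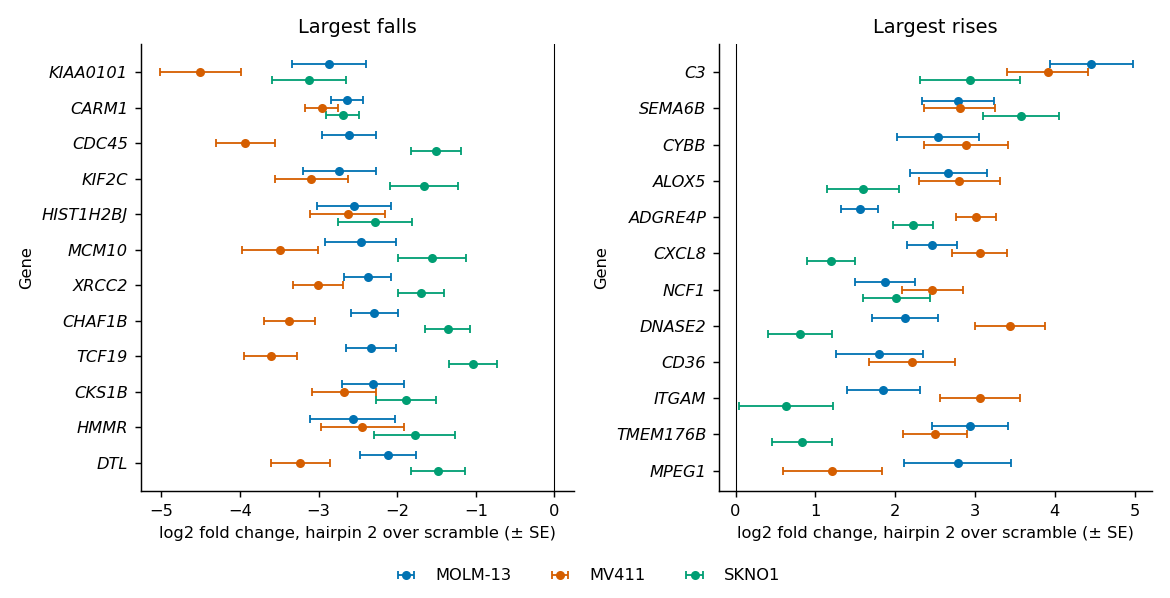
Log2 fold change of hairpin 2 over scramble (horizontal axis) with its SE in each line, for the 12 largest falls and 12 largest rises with the same sign in 3 lines and a mean log2 CPM of at least 2 (vertical axis); colours are lines, and a point is left out where both groups of a line had a mean below 10 counts. KIAA0101 and C3 lead the respective sides among genes of that level.

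The genes that prepare origins for replication were lower almost as a set. Of 26 tested genes of origin licensing and the replicative helicase, 25 were lower with hairpin 2, against 15.0% of all genes tested. Their median change was -1.53, beside 0.05 for all genes, and it was -1.70 in MOLM-13, -2.12 in MV411 and -1.002 in SKNO1. In each of the 3 lines 16 members passed, against a background of 1.64%. In these bulk samples, fewer cells in S phase and less of these RNAs per cell cannot be told apart.

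The promoters of a licensing gene and a mitosis gene are shown because E2F sites at S phase genes and CHR elements at mitotic genes, where DREAM and MuvB complexes bind, are known regulatory sequences of these classes. MCM3 encodes a subunit of the MCM helicase ring, and its window is chr6:52284693-52284992, minus strand. MAD2L1 encodes a spindle checkpoint protein, and its window is chr4:120066799-120067098, minus strand. Both come from RefSeq (GRCh38.p14) and run from 250 bases before the start of transcription to 50 after it. Capitals mark E2F (TTTCCCGC, TTTGGCGC, TTTCGCGC or TTTGCCGC), CHR (TTTGAA or TTCGAA) and NF-Y (CCAAT) motifs, searched on both strands, so that a motif on the other strand appears as its reverse complement.
MCM3: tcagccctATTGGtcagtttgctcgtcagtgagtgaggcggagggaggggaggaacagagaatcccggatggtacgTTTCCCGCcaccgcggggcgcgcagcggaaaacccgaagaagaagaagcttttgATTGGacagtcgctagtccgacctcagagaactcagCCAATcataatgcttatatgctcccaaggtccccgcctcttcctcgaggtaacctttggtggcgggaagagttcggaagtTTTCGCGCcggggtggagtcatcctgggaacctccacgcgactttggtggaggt
MAD2L1: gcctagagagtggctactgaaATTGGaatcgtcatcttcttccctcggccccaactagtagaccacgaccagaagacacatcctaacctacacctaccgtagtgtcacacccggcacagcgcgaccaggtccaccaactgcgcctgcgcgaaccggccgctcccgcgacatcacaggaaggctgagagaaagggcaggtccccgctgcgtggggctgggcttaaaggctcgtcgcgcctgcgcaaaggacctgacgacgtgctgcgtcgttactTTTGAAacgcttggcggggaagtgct
In the MCM3 window TTTCCCGC lies 174 bases and TTTCGCGC 4 bases before the start, and NF-Y motifs lie 242, 120 and 84 bases before it. In the MAD2L1 window TTTGAA lies 24 bases after the start, and an NF-Y motif 229 bases before it.

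E2F motifs stood in 11 of the 22 licensing promoters found in the RefSeq table (50%) and in 8 of 25 promoters of replication fork genes (32.0%). Of all 27305 promoters of the same length in that table, 3.33% held one, and of the 11314 found for tested protein-coding genes 5.25%, but these matched 79.8% of such genes, under the 80% required, so the second comparison is void. Among 2177 promoters of protein-coding genes that were lower with 1 sign, the share was 8.59%. CHR motifs stood in 28 of 35 mitosis promoters (80%, against 16.6% of all), and NF-Y motifs in 26 of them (74.3%, against 35.7%). These matches describe letters and not binding.

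MCM3 had 122, 121 and 108 CPM with scramble in MOLM-13 and 31.5, 53.5 and 37.5 with hairpin 2. Its MV411 levels were 113, 65.5 and 112 CPM with scramble and 24.4, 33.3 and 28.1 with hairpin 2, and in SKNO1 169, 198 and 161 against 79.7, 49.2 and 66.7. The groups did not overlap in any line, and MCM3 fell by 1.47 ± 0.12 (adjusted p = 3.74e-07, edgeR). MCM4 and MCM6, of the same ring, fell by 1.85 ± 0.15 and 1.76 ± 0.18, and ORC1, a subunit of the complex that marks origins, by 1.85 ± 0.17.

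Other steps of DNA synthesis were lower as well, and their counts stand against 15.0% lower of all genes tested. Of 28 replication fork genes 27 were lower (median -1.19), among them the clamp loader subunit RFC5 (-1.63 ± 0.14) and the polymerase delta subunits POLD3 (-1.22 ± 0.12) and POLD2 (-0.89 ± 0.09). All 10 genes of deoxynucleotide supply were lower (median -1.41). DUT, which removes dUTP, fell by 1.41 ± 0.11, and RRM1, the large subunit of ribonucleotide reductase, by 1.38 ± 0.15. All 21 tested genes of homologous recombination and Fanconi repair were lower (median -1.26). XRCC2, which acts in strand exchange, fell by 2.34 ± 0.21, and the Fanconi core gene FANCG by 1.12 ± 0.12. Of 66 replication-dependent histone genes 58 were lower (median -1.49), but reads of near-identical copies could be split among them. In MOLM-13 48, in MV411 57 and in SKNO1 1 passed as lower (background 8.18%, 7.34% and 3.70%), with medians of -1.74, -2.08 and -0.68.

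Cell cycle regulators followed. Of 17 cyclin, CDK and CDC25 genes 15 were lower (median -1.26), against 15.0% of all genes. In MOLM-13 15, in MV411 13 and in SKNO1 3 passed as lower. CDK2, the kinase of S phase cyclins, fell by 1.66 ± 0.17, CCNB2, a mitotic cyclin, by 1.68 ± 0.23, and CDK4, the kinase of G1 cyclins, by 0.92 ± 0.12. Of 19 genes of the E2F, RB and MuvB families 14 were lower, with the activator E2F1 at -1.96 ± 0.29, the B-Myb gene MYBL2 at -2.06 ± 0.32 and the pocket protein gene RBL1 at -1.06 ± 0.12. Of these 19, 11 passed as lower in MOLM-13, 12 in MV411 and 1 in SKNO1. Among 12 CDK inhibitors and antiproliferative genes 4 were higher and 2 lower, against 13.4% and 15.0% of all genes, so the lower count is about that share. CDKN1C, which encodes p57, rose by 1.59 ± 0.25, CDKN1A, which encodes p21, by 1.22 ± 0.24, and the antiproliferative gene BTG2 by 1.25 ± 0.16, whereas its relative BTG3 fell by 0.71 ± 0.16.

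All 42 mitosis genes tested were lower across the lines, with a median of -1.57. In MOLM-13 41 and in MV411 41 of them passed as lower, with medians of -2.04 and -2.03 (background 8.18% and 7.34%). In SKNO1 3 passed (background 3.70%), with a median of -0.79. The edgeR test of a difference between lines called 0 of the 42 (background 0.548%), with 19 at an unadjusted p under 0.05, and DESeq2 called 6 and limma-voom 0. MAD2L1 had 30.98, 39.3 and 45.4 CPM with scramble in MOLM-13 and 7.94, 8.91 and 7.23 with hairpin 2. In MV411 it had 53.97, 21.1 and 43.9 against 6.92, 4.51 and 12.7 CPM, and in SKNO1 42.5, 62.7 and 43.9 against 15.7, 15.2 and 21.03. No library crossed over in any line, and MAD2L1 fell by 1.90 ± 0.22 (adjusted p = 5.3e-06, edgeR). INCENP, of the chromosomal passenger complex, fell by 1.46 ± 0.18, and the checkpoint kinase gene BUB1B by 1.88 ± 0.25.

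Genes that build ribosomes formed another set that was lower in full, by smaller amounts. All 32 tested ribosome biogenesis genes were lower (median -0.64), against 15.0% of all genes. The medians were -0.68 in MOLM-13, -0.73 in MV411 and -0.51 in SKNO1. PES1, which matures the large subunit, had 65.8, 75.9 and 63.5 CPM with scramble in MOLM-13 and 32.9, 44.2 and 38.2 with hairpin 2. The MV411 libraries had 76.3, 70.6 and 72.7 against 41.2, 37.9 and 40.01 CPM, and those of SKNO1 124, 127 and 126 against 76.02, 66.9 and 77.3. The groups were apart in each line, and PES1 fell by 0.71 ± 0.08 (adjusted p = 4.54e-06, edgeR). POLR1A, the largest subunit of RNA polymerase I, fell by 0.76 ± 0.09, RRP9 by 0.85 ± 0.10, and NOP56, of the box C/D snoRNA particle, by 0.70 ± 0.09. The E-box CACGTG, which MYC and related factors can bind, stood in 11 of 26 ribosome biogenesis promoters (42.3%, against 7.43% of all).

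MYC, a transcription factor that drives ribosome production, fell by 0.86 ± 0.12 across the lines (adjusted p = 3.97e-05, edgeR). Its MV411 levels were 244, 283 and 277 CPM with scramble and 101, 110.3 and 109 with hairpin 2. In SKNO1 it had 440.3, 331 and 487 against 275, 253 and 321 CPM, groups that did not overlap, but its change there of -0.41 ± 0.17 did not pass (adjusted p = 0.163, edgeR). Of the 12 genes of the MYC network tested, 3 were higher, with MYCL at 1.01 ± 0.25, and MYC was the one that was lower. Of all genes tested 13.4% were higher and 15.0% lower.

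Several lists of biosynthetic and protein folding genes had more lower members than the 15.0% of all genes. Of 16 serine and one-carbon genes 12 were lower and 1 higher (median -0.82). SHMT1, which loads one-carbon units onto folate, fell by 1.18 ± 0.12, and the purine synthesis genes PFAS and PAICS by 1.13 ± 0.12 and 1.36 ± 0.14. Of 30 ATF4 targets, amino acid transporters and tRNA synthetases 20 were lower and 1 higher (median -0.55). In MOLM-13 17, in MV411 10 and in SKNO1 0 passed as lower (background 8.18%, 7.34% and 3.70%), with medians of -0.82, -0.67 and -0.16. The leucine transporter gene SLC7A5 fell by 1.44 ± 0.20 and the asparagine synthetase gene ASNS by 1.35 ± 0.21, whereas the cystine transporter gene SLC7A11 rose by 0.65 ± 0.19. The groups of SLC7A5 overlapped in MOLM-13, and those of SLC7A11 in MOLM-13 and SKNO1. Of 28 chaperones 17 were lower (median -0.40), with FKBP4 at -0.73 ± 0.10 and the mitochondrial HSPA9 at -0.79 ± 0.13. Of 28 sterol and fatty acid genes 16 were lower, with the farnesyl diphosphate synthase gene FDPS at -0.97 ± 0.15. Splicing factors had 19 lower and 1 higher of 46, with SRSF1 at -0.60 ± 0.09. In MOLM-13, MV411 and SKNO1 10, 3 and 0 chaperones passed as lower. The same counts were 12, 1 and 4 for sterol and fatty acid genes and 15, 8 and 1 for splicing factors. For serine and one-carbon genes they were 12, 11 and 5. Proteasome genes had 7 lower of 32 (median -0.17), and nuclear-encoded respiratory chain genes 3 lower and 1 higher of 36 (median -0.11), the latter fewer than the 15.0% and 13.4% of all genes.

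BCL2, an antiapoptotic gene and a drug target in this leukaemia, was lower with hairpin 2. It had 166, 210.3 and 280.4 CPM with scramble in MOLM-13 and 94.4, 110.2 and 52.2 with hairpin 2. In MV411 it had 208, 222 and 225 against 34.7, 42.3 and 57.9 CPM, and in SKNO1 67.3, 72.3 and 67.02 against 26.7, 27.6 and 28.1. The groups were apart throughout, and BCL2 fell by 1.53 ± 0.16 (adjusted p = 2.12e-06, edgeR). Of 15 members of the family tested, 4 were higher and 2 lower, against 13.4% and 15.0% of all genes, so the lower count is about that share. The proapoptotic BMF had 0.82 ± 0.19, with overlap in MOLM-13 and MV411, and the antiapoptotic BCL2A1 0.93 ± 0.26. BCL2A1 groups were apart in MOLM-13 only. In both MV411 groups it had a mean below 10 counts, and in SKNO1 it had 7.95, 8.16 and 7.16 CPM with scramble and 8.78, 9.81 and 6.61 with hairpin 2. Of 32 genes of p53 and its targets 12 were higher and 2 lower (median 0.32), the latter fewer than the 15.0% of all genes. TP53I3 rose by 1.37 ± 0.20 and ZMAT3, an RNA-binding p53 target, by 1.01 ± 0.16, and PMAIP1, which encodes NOXA, fell by 0.61 ± 0.18.

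**Figure D3:**
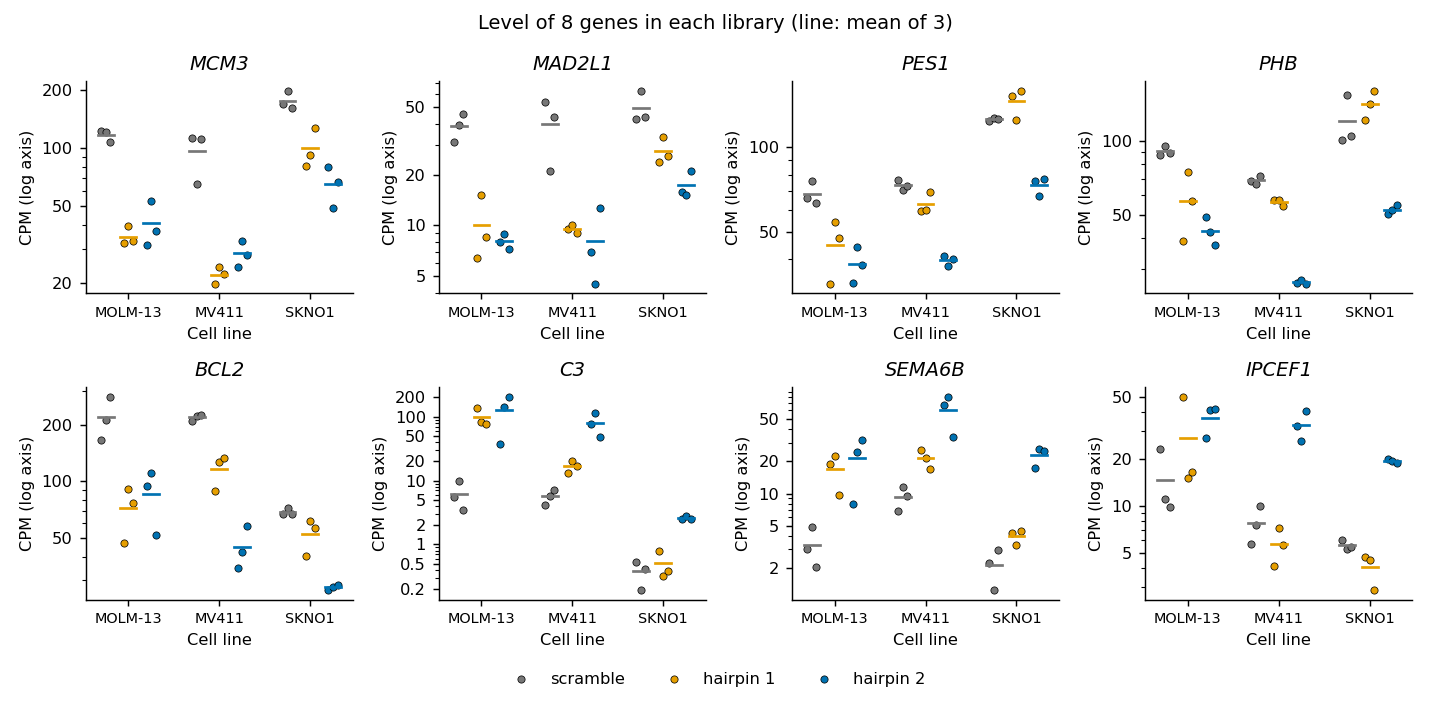
Level in CPM (vertical axis, log scale) of 8 genes in each library, by cell line (horizontal axis) and shRNA (colour), with the mean of 3 as a line. Hairpin 2 libraries are apart from scramble libraries in each line for all 8 genes, and hairpin 1 libraries lie nearer to scramble for PES1 and PHB in MV411 and SKNO1.

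Genes of monocytes and macrophages were higher with hairpin 2. Of 41 tested 30 were higher, against 13.4% of all genes, with a median of 1.12. With 1 sign in the 3 lines 24 of the 41 were higher, against 11.8% of all genes. In MOLM-13 23, in MV411 20 and in SKNO1 7 passed as higher (background 5.54%, 5.28% and 3.56%), with medians of 1.16, 1.31 and 0.63. The summed level of the list was 1164 to 4363 CPM in MOLM-13 scramble libraries and 2674 to 5481 with hairpin 2, ranges that overlap. In MV411 it was 1481 to 1739 against 2842 to 3311 CPM, and in SKNO1 523 to 657.9 against 711 to 778, without overlap. ADAMDEC1, a protease of macrophages and dendritic cells, rose by 4.04 ± 0.46, with almost no counts in SKNO1. Of 25 myeloid transcription factors 9 were higher, among them KLF4 (1.22 ± 0.20) and TFE3 (0.67 ± 0.11), a regulator of lysosomal genes.

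NF-kB subunits and feedback genes had 16 higher of 29 (median 0.73). ICAM1, an adhesion ligand of leukocyte integrins, had 7.04, 12.1 and 7.75 CPM with scramble in MOLM-13 and 13.5, 38.9 and 42.98 with hairpin 2. The MV411 libraries had 17.98, 18.9 and 17.6 against 50.95, 62.96 and 28.6 CPM, and those of SKNO1 38.7, 33.5 and 42.8 against 72.1, 72.96 and 70.2. The groups were apart in each line, and ICAM1 rose by 1.48 ± 0.19 (adjusted p = 1.59e-05, edgeR). The IkB-like regulators NFKBIZ and BCL3 rose by 1.16 ± 0.17 and 1.25 ± 0.19. Of 34 immediate early genes 14 were higher and 3 lower, against 13.4% and 15.0% of all genes. In MOLM-13 11, in MV411 3 and in SKNO1 10 passed as higher (background 5.54%, 5.28% and 3.56%). The medians were 0.50, -0.03 and 0.53, and in MV411 3 passed as lower too (background 7.34%). Higher were JUN, a subunit of AP-1, at 1.49 ± 0.21, IER3 at 1.00 ± 0.13 and the mRNA decay factor gene ZFP36L1 at 1.19 ± 0.20. The groups of JUN and IER3 overlapped in MV411.

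Of 39 lysosome and autophagy genes 28 were higher and 1 lower (median 0.59, and 0.70, 0.65 and 0.51 in MOLM-13, MV411 and SKNO1). CTSB, a lysosomal protease, had 126, 154 and 162 CPM with scramble in MV411 and 382, 412 and 365 with hairpin 2, and rose by 1.24 ± 0.15 across the lines. The autophagy adaptor gene SQSTM1 rose by 0.80 ± 0.10, GABARAPL1, of the ATG8 family, by 1.43 ± 0.20 and WIPI1, which binds phosphoinositide on forming autophagosomes, by 1.55 ± 0.19. PPT1, a lysosomal thioesterase, was the member that was lower (-1.27 ± 0.21), with 180.1, 188 and 173 CPM with scramble in SKNO1 and 39.9, 31.3 and 32.2 with hairpin 2. Of 21 NRF2, antioxidant and iron genes 7 were higher and 2 lower, against 13.4% and 15.0% of all genes. HMOX1, the haem oxygenase, rose by 2.79 ± 0.37 and the ferritin heavy chain gene FTH1 by 1.43 ± 0.18, while the thioredoxin gene TXN fell by 0.55 ± 0.14.

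All 11 HLA class II genes were higher across the lines (median 1.74), of which 11 passed in MV411, 2 in SKNO1 and 1 in MOLM-13 (background 5.28%, 3.56% and 5.54%). HLA-DPA1, the alpha chain of HLA-DP, had 6.16, 8.16 and 9.04 CPM with scramble in MV411 and 59.4, 87.8 and 37.04 with hairpin 2. In SKNO1 it had 12.2, 10.5 and 12.5 against 18, 22.5 and 23.2 CPM. In MOLM-13 it had 0.0248, 0.133 and 0.0196 against 0.0575, 0.0341 and 0.309 CPM, so the groups were apart in MV411 and SKNO1 and overlapped at a level near 0 in MOLM-13. Across the lines it rose by 2.01 ± 0.33 (adjusted p = 0.000179, edgeR). Of 39 type I interferon genes 19 were higher (median 0.87), 15 of them with 1 sign in the 3 lines. The medians were -0.09 in MOLM-13, 1.86 in MV411 and 0.90 in SKNO1. In MV411 30 passed as higher, in SKNO1 6 and in MOLM-13 2, where 1 was lower. The test between lines called 1 of these 39 interferon genes (background 0.548%), with 28 at an unadjusted p under 0.05, and DESeq2 called 13. STAT2 and IRF9, transcription factors of the interferon response, rose by 0.73 ± 0.13 and 1.08 ± 0.25, and LGALS3BP by 1.75 ± 0.34.

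**Figure D4:**
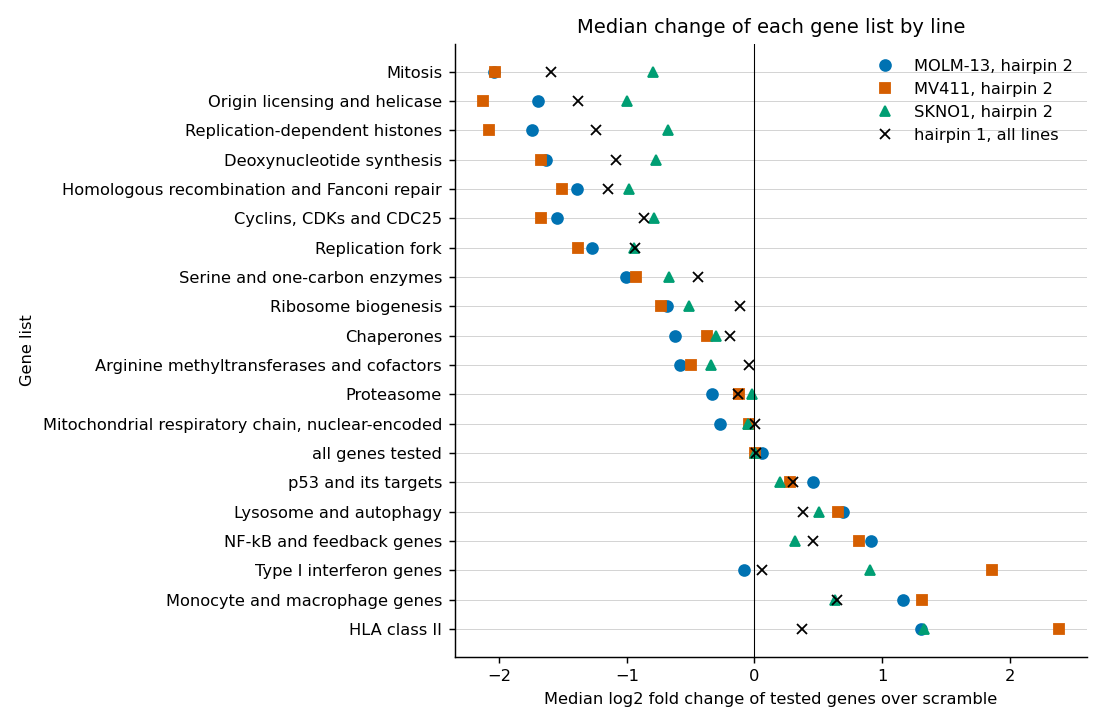
Median log2 fold change over scramble (horizontal axis) of the tested genes of each list and of all genes (vertical axis); coloured symbols are hairpin 2 in each line and crosses are hairpin 1 across the lines, against the same scramble libraries. The licensing and mitosis medians are below 0 in each line, and ribosome biogenesis with hairpin 1 lies at -0.11.

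For genes of other lineages and of immature cells, the shares called are read against 15.0% lower and 13.4% higher of all genes. Of 14 primary granule genes 3 were lower and 1 higher, with the protease CTSG at -1.58 ± 0.29 and the peroxidase MPO at -0.85 ± 0.23. Of 25 stem and self-renewal genes 4 were lower and 3 higher, about the shares of all genes. With 1 sign in the 3 lines 1 was lower and 3 higher, against 13.9% and 11.8% of all genes. The list medians were -0.36 in MOLM-13, -0.06 in MV411 and 0.36 in SKNO1. HOXA10, which was at 0 in SKNO1, had -1.04 ± 0.18, and BCL11A had -0.79 ± 0.14. Of 11 lymphoid markers 2 were higher, CD79B (1.23 ± 0.25) and CD4 (0.50 ± 0.12), which monocytic cells also carry. Of 6 megakaryocyte markers GP9 was lower (-1.28 ± 0.38), at a mean below 10 counts in MOLM-13 and 0 in SKNO1, and its adjusted p was 0.055 without MV411 scramble replicate 3 and 0.0543 without MV411 hairpin 2 replicate 3 (edgeR). Of 3 erythroid markers tested 2 were higher, KLF1 (0.66 ± 0.20) and HBB, which was at or near 0. KLF1 had means of 0.253 and 0.387 CPM with scramble and hairpin 2 in MOLM-13, and 0.782 and 1.62 in MV411. In SKNO1 its means were 2.24 and 2.28 CPM, and its groups were apart in MV411 only. The third, EPOR, was not called, and its mean was lower with hairpin 2 in each line. Of 3 genes listed as non-haematopoietic markers PECAM1, which leukocytes and platelets also carry, was higher (0.82 ± 0.20) and KRT18 lower (-0.56 ± 0.16).

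The other arginine methyltransferases tended to be lower. Of 11 tested genes of that family and its cofactors 8 were lower (median -0.41). PRMT5, the main enzyme of symmetric dimethylation, had 115, 121 and 112 CPM with scramble in SKNO1 and 82.4, 71.2 and 78.4 with hairpin 2, and fell by 0.52 ± 0.09 across the lines (adjusted p = 0.000177, edgeR). Its partner gene WDR77 fell by 0.63 ± 0.11, its cofactor gene RIOK1 by 0.63 ± 0.12 and PRMT3, which modifies a ribosomal protein, by 0.64 ± 0.13. Of 19 partners and substrates of CARM1 2 were higher and 3 lower, about the shares of all genes. Those higher were the p160 coactivator genes NCOA3 (0.94 ± 0.14) and NCOA2 (0.62 ± 0.11). Of 16 Polycomb and DNA methylation genes 6 were lower and 2 higher, against 15.0% and 13.4% of all genes, so the higher count is about that share. UHRF1, which guides DNMT1 to replicated DNA, fell by 2.13 ± 0.23, the histone methyltransferase gene EZH2 by 1.07 ± 0.14 and DNMT1 by 0.65 ± 0.11, while TET2, which oxidises methylcytosine, rose by 0.56 ± 0.12.

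A direct test of hairpin 2 against hairpin 1, in a fit of all 27 libraries, showed which gene groups differed between the hairpins. It called 2060 of 21262 genes (9.69%), 909 higher with hairpin 2 (4.28%) and 1151 lower (5.41%). Of the 42 mitosis genes edgeR called 0 as lower and 0 as higher, with 4 lower at an unadjusted p under 0.05, and DESeq2 called 1 and limma-voom 0. Over the shared scramble libraries the mitosis median was -1.59 with hairpin 1 and -1.57 with hairpin 2. MCM3 had -1.33 ± 0.16 with hairpin 1, and its difference between hairpins was -0.13 ± 0.15 (adjusted p = 0.635, edgeR).

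Ribosome biogenesis genes did differ. Of 32 tested 24 were lower with hairpin 2 than with hairpin 1, and the median over scramble was -0.11 with hairpin 1. PES1 with hairpin 1 had 59.5, 59.9 and 69.3 CPM in MV411 and 152, 125 and 159 in SKNO1, above all hairpin 2 libraries of those lines. In MOLM-13 its hairpin 1 values of 32.8, 54.4 and 47.8 CPM overlapped those of hairpin 2. The difference across the lines was -0.72 ± 0.11 (adjusted p = 0.000298, edgeR). Also lower with hairpin 2 were 7 of 28 chaperones and 5 of 11 arginine methyltransferase genes, and higher were 9 of 11 HLA class II, 15 of 39 interferon and 7 of 41 monocyte genes. MYC (-0.69 ± 0.15), CDK4 (-0.88 ± 0.14) and BCL2 (-0.78 ± 0.20) were lower with hairpin 2 (adjusted p = 0.00375, 0.000385 and 0.0113, edgeR).

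PHB was among the genes that led this test on the lower side. PHB, which encodes prohibitin of the inner mitochondrial membrane, had 68.3, 66.9 and 71.8 CPM with scramble in MV411, 57.4, 57.1 and 53.97 with hairpin 1 and 26.2, 27.1 and 26.2 with hairpin 2. In SKNO1 it had 101, 153 and 105 CPM with scramble, 121, 141 and 159.5 with hairpin 1 and 50.4, 51.98 and 54.9 with hairpin 2. Hairpin 2 libraries were below both other groups in these lines, while in MOLM-13 hairpin 1, with 39.03, 74.5 and 56.6 CPM, overlapped hairpin 2, with 48.9, 42.5 and 37.5. PHB changed by -1.09 ± 0.11 over scramble with hairpin 2, had -0.01 ± 0.14 with hairpin 1, and differed between them by -1.06 ± 0.14 (adjusted p = 0.000129, edgeR). The mitochondrial ribosomal protein gene MRPS24 (-1.08 ± 0.14), the sorting nexin gene SNX17 (-0.76 ± 0.10) and ECH1 of fatty acid breakdown (-1.15 ± 0.16) were also lower with hairpin 2.

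On the higher side stood ADGRE4P (1.62 ± 0.25), IPCEF1 (1.64 ± 0.28), TNRC6B of the microRNA silencing complex (0.72 ± 0.10), DOCK8 (0.71 ± 0.11) and NEK9 (0.61 ± 0.10). IPCEF1, which binds a guanine exchange factor for ARF6, had 6.004, 5.30 and 5.45 CPM with scramble in SKNO1, 4.69, 4.46 and 2.88 with hairpin 1 and 19.9, 19.2 and 18.8 with hairpin 2. Hairpin 2 stood above both other groups there and in MV411, and overlapped hairpin 1 in MOLM-13. Over scramble it rose by 1.87 ± 0.19 with hairpin 2 and had 0.30 ± 0.28 with hairpin 1. TNRC6B and DOCK8 had -0.33 ± 0.10 and -0.46 ± 0.11 over scramble with hairpin 1, and 0.37 ± 0.09 and 0.22 ± 0.11 with hairpin 2.

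Among the genes called across the lines, 537 did not have 1 sign, and 345 of these were opposite in SKNO1 to both other lines, 95 in MV411 and 71 in MOLM-13. With a mean of at least 10 counts in either group of every line, only 221 called genes did not have 1 sign. The sign of the others carries little information in a line with fewer counts. The test of a difference between lines called 114 genes (0.548%), with 2687 at an unadjusted p under 0.05. That count was 39 without SKNO1 hairpin 2 replicate 2, 281 and 201 without MOLM-13 hairpin 2 replicate 3 or 2, 787 with DESeq2 and 1161 with no filter on low counts. It was 61 without MV411 scramble replicate 3 or hairpin 2 replicate 1, and 51, 56 and 46 without SKNO1 scramble replicate 1, scramble replicate 3 or hairpin 2 replicate 3. POLE, the catalytic subunit of polymerase epsilon, had 64.7, 54.8 and 63.4 CPM with scramble in MV411 and 12.5, 18.4 and 14.1 with hairpin 2, but 352, 292 and 375 against 433, 416 and 496 in SKNO1. The groups did not overlap in either line and lay in opposite order. BIRC3, an NF-kB target that blocks cell death, had 0.819, 0.721 and 0.647 CPM with scramble in MOLM-13 and 7.08, 4.03 and 6.49 with hairpin 2, and 76.8, 34.9 and 75.3 against 32.5, 37.2 and 33.5 in SKNO1, where the groups overlapped. Its common change of 1.44 ± 0.45 lost its call without MOLM-13 scramble replicate 2 or 3 (adjusted p = 0.0503 and 0.0542, edgeR).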

How the data were processed

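Ribosome-depleted, stranded total RNA libraries were deposited by the authors as a table of expected counts per gene. They came from STAR 2.5.3 and RSEM on the build GRCh38.p7, per the submitters' processing notes. The RSEM version and strand setting are not given in the sources used here, so overlapping and near-identical genes are uncertain. Of the non-zero expected counts 30.39% were not whole (tolerance 1e-09), and all were rounded. Genes were kept with filterByExpr (minimum count 10, total 15) in edgeR 4.0.16 (limma 3.58.1, R 4.3.3), with TMM scaling. The additive fit used line and shRNA over 18 libraries and a quasi-likelihood F test, with Benjamini-Hochberg adjustment over all genes and a threshold of 0.05. Changes per line and their difference came from a fit of 6 groups. Hairpin 2 against hairpin 1, and hairpin 1 against scramble, came from a fit of 27 libraries. CPM used library totals, and log2 CPM a prior count of 2. The scripts were tested on simulated data.

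Named genes were CARM1, up to 12 per direction with the largest common change (mean log2 CPM of at least 2), up to 4 per list by smallest p with 1 in the other direction, and up to 5 each for the line and hairpin tests. Some of these genes are not reported here. Members and lists were chosen with earlier results of these data known. Counts of list members take calls across the lines without requiring 1 sign, unless stated. Gene positions and types came from GENCODE 29, which held 57388 of 57992 identifiers. Alternatives were DESeq2 1.42.0, limma-voom, other scaling and filters, a replicate block, and leaving out each library or line.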

Additional observations from a re-analysis of the deposited data

Results flagged for a closer look

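Of the 114 genes whose response to hairpin 2 differed between the lines in edgeR's test (adjusted over all genes), the 10 that were named genes are given here. Changes are given as log2 values in MOLM-13, MV411 and SKNO1. The fall of UHRF1 was -2.09 ± 0.21, -3.17 ± 0.22 and -1.16 ± 0.21 (adjusted p = 0.00901), and that of TCF19 -2.33 ± 0.32, -3.61 ± 0.34 and -1.04 ± 0.30 (adjusted p = 0.0254). In the other 8 the sign in SKNO1 was opposite to that in both other lines. POLE, BIRC3, EPDR1, GMEB1 and CDKN2C were named because their sign differed in a line, so their opposite sign follows from the choice. POLE had -1.39 ± 0.20, -1.91 ± 0.21 and 0.55 ± 0.20 (adjusted p = 0.00152), and BIRC3 3.16 ± 0.37, 2.11 ± 0.34 and -0.69 ± 0.30 (adjusted p = 0.00267).

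CDKN2C, which encodes the CDK inhibitor p18, had -0.82 ± 0.23, -1.74 ± 0.25 and 0.44 ± 0.23 (adjusted p = 0.0123). GMEB1 had -0.70 ± 0.17, -1.21 ± 0.17 and 0.38 ± 0.17 (adjusted p = 0.00901), and EPDR1 -0.68 ± 0.18, -1.39 ± 0.18 and 0.28 ± 0.17 (adjusted p = 0.00871). The homeobox gene IRX5 had -1.37 ± 0.23, -0.99 ± 0.20 and 0.95 ± 0.18 (adjusted p = 0.00152). TXNDC5, a protein disulfide isomerase gene, had -0.80 ± 0.21, -0.97 ± 0.21 and 0.97 ± 0.21 (adjusted p = 0.00807), and TTLL4 0.27 ± 0.15, 0.72 ± 0.15 and -0.92 ± 0.16 (adjusted p = 0.00542).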

How the results depend on the processing

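Without MV411, 3897 genes passed across the lines and 1781 were higher. Genes past the threshold as higher in each line numbered 151 with no filter on low counts, 180 with at least 1 CPM in 9 libraries and 194 with DESeq2, and lower genes 540 with no filter. DESeq2 called 2486 genes in SKNO1. The test between lines called 1161 genes with no filter, 192 with at least 1 CPM in 9 libraries and 787 with DESeq2. The median change of all genes was 0.117 with no filter. The common change of HOXA9 was 0.277 as the mean of the lines in the fit of 6 groups, where SKNO1 had almost no counts. Among genes with counts in every line, 1980 were higher and 2738 lower with 1 sign, and 102 differed between lines.

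Leaving out each library gave 5208 to 6293 genes across the lines (2278 to 3005 higher, 2808 to 3288 lower), with 1 sign 2011 to 2634 higher and 2612 to 3063 lower. Past in each line were 31 to 115 higher and 88 to 386 lower genes. MOLM-13 gave 1354 to 3069 genes (lowest without scramble replicate 2), MV411 1457 to 3042 (lowest without scramble replicate 3) and SKNO1 420 to 1852 (lowest without hairpin 2 replicate 2). The test between lines gave 39 to 281 genes, and hairpin 2 against hairpin 1 gave 1413 to 3315 (highest without MOLM-13 hairpin 1 replicate 1). The CARM1 difference was -2.98 to -2.79, the mitochondrial rRNA share 2.40 to 3.03 points, the structured RNA share 3.45 to 4.88 and the mitochondrial mRNA share -0.0052 to 0.0665. Of 174 named genes called across the lines, 27 lost the call without MV411, 23 without MOLM-13 and 16 without SKNO1. DESeq2 size factors moved the higher share of calls from 47.2% to 52.2%.

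With the replicate number as a block, 5541 genes passed, and CARM1 had -2.90 (exact sign-flip permutation p = 0.0039, the smallest that 512 flips allow). Same-numbered libraries deviated together with correlations of 0.157 to 0.509 in MV411, -0.267 to 0.283 in MOLM-13 and -0.0859 to 0.18 in SKNO1, so over the 3 lines the numbers were not taken as pairs, although in MV411 every pair was above 0.1. Of the 174 named genes called, 7 lost the call with the block. The closest replicate pair was scramble 1 and 3 in SKNO1, with a chi-square per gene of 8.03 (the next pair had 36.5), which is above sampling noise, so both were kept. This value cannot tell whether they came from separate cultures or infections.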

Other observations

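Classes of RNA moved in different proportions. Counting calls with 1 sign in the 3 lines (11.8% of all genes higher, 13.9% lower), of 14191 protein-coding genes 1838 were higher and 2647 lower (13% and 18.7%). Of 3974 long non-coding genes 374 were higher and 172 lower, and of 2191 pseudogenes 183 and 75. Of 305 small non-coding genes 58 were higher and 1 lower (median 0.44). Among them, with 1 sign, 34 of 154 snoRNAs, 5 of 52 snRNAs and 5 of 16 scaRNAs were higher. The share of structured RNAs in the libraries was also higher with hairpin 2, and its part in these counts was not tested.

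HBB, the beta-globin gene, was at 0 in all 9 scramble libraries. With hairpin 2 it had 0.431, 0.0341 and 0.0618 CPM in MOLM-13, 0, 0.0399 and 0.0503 in MV411 and 0.959, 0.668 and 0.609 in SKNO1. The other globin genes HBA1 and HBA2 did not exceed 0.230 CPM in any of the 18 libraries. HBB was thus detected in 8 of 9 hairpin 2 libraries, at very low levels. It was also above 0 in all 9 hairpin 1 libraries, with 0.0689, 0.0871 and 0.0751 CPM in MOLM-13, 0.368, 0.145 and 0.283 in MV411 and 0.617, 0.470 and 0.670 in SKNO1.

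The data are total RNA at 1 time after infection, from 3 lines, with 1 scramble control shared by both hairpins. Protein, methylation and cell numbers were not analysed here.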
